A study of Mus musculus with 37 samples.

Results

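Mice that carried 1 null allele of Hdac4 were compared with mice that carried none, over both of the genetic backgrounds in which the allele was studied. The 19 carriers, of 37 mice in all, were those whose labels hold HDAC4het, with or without the R6/2 transgene. They comprised 9 Hdac4HET mice (HDAC4het in the labels) and 10 Dble::R6/2 mice (R6/2::HDAC4het), and the 18 non-carriers comprised 9 WT and 9 R6/2 mice. All were CBA X C57Bl/6 mice of both labelled sexes, aged 9 weeks, with 1 Affymetrix array of cortex RNA per mouse. The R6/2 transgene, an N-terminal fragment of mutant human huntingtin, was present in 10 carriers and 9 non-carriers. No mouse lacked both copies of Hdac4. By the study's own account the null allele was made in cells of another mouse strain and is still flanked by DNA of that strain, so that carriers and non-carriers may also differ in the neighbouring genes on chromosome 1. The comparison asked which RNAs differ with the null allele in both backgrounds alike.

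HDAC4 is a class IIa histone deacetylase. Enzymes of this class are held in the cytoplasm by 14-3-3 proteins once kinases have phosphorylated them, and in the nucleus they bind MEF2 transcription factors and recruit a corepressor complex that contains HDAC3. In neurons much of HDAC4 is cytoplasmic, and mice without it have disturbed bone growth.

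A linear model with the null allele and the transgene as terms was fitted to each of 45037 probe sets with limma. Changed probe sets are those with an adjusted p (Benjamini-Hochberg, over all probe sets) under 0.05 and more than a 1.3-fold difference, and those that differed at any size passed the adjusted p alone. All levels and differences below are on the log2 scale of the deposited table. Only 11 probe sets changed, 0.0244% of those tested, of which 8 were higher (0.0178%) and 3 lower (0.00666%) in carriers. The 11 stood for 6 named genes and 1 probe set without a symbol. Hdac4 itself fell, and Prm1, Pam, Abi3bp, Ccn4 and Tmem40 rose. At any size 188 probe sets differed (0.417%), 130 higher (0.289%) and 58 lower (0.129%), and they stood for 133 genes. The median difference was 0.13 among the higher and −0.21 among the lower. The 95% interval of the difference lay within 1.3-fold in either direction for 98% of all probe sets. Leaving out WT replicate 8, Hdac4HET replicate 2 or R6/2 replicate 4 raised the count of changed probe sets to 34, 20 and 17. The count at any size was more sensitive to single arrays. It was between 91 and 122 without any 1 of WT replicates 4 and 5, Hdac4HET replicates 1 and 7, R6/2 replicates 2, 3 and 5 and Dble::R6/2 replicates 5, 8, 9 and 10, and it was 393 without R6/2 replicate 4 and 650 without WT replicate 8.

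Some arrays stand apart in ways that touch these results. On 7 arrays, all of carriers (Hdac4HET replicates 1, 4, 5, 6, 7 and 9 and Dble::R6/2 replicate 10), the mean of 19 olfactory bulb markers was between 7.25 and 8.66, while it was at most 6.83 on the other 30. On 6 arrays, RNAs of the sex chromosomes went against the labelled sex in whole or in part, and 3 of these were also among the 7. All of the 6 but WT replicate 9 were of carriers. Both Xist, an RNA made in females, and Y-linked RNAs were present on 2 of them. On Hdac4HET replicate 5, labelled female, Xist was at 11.21 and the Y-linked mean at 6.56. On Hdac4HET replicate 9, labelled male, they were at 11.67 and 5.89. Whether these 2 arrays held RNA of more than 1 mouse was not tested. Of the 11 changed probe sets, 7 were called without the 7 raised arrays (0.0155% of probe sets), 8 without the 6 arrays (0.0178%) and 6 without both sets (7 called in all, 0.0155%, and 19 at any size, 0.0422%). At any size 45 probe sets differed without the raised arrays (0.0999%), of which 34 were among the 188, and 45 without the 6 arrays (0.0999%), of which 44 were. All 188 kept their direction without the raised arrays. The 19 measured markers of cortical layers had mean levels between 6.48 (Otof) and 12.96 (Pcp4), against a median of 6.19 over all probe sets. Such levels cannot show whether a given array also held other tissue.

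The bases before the start of 3 of the changed genes are shown because each had at least 1 probe set on which no carrier overlapped with a non-carrier. Each run is the 250 bases upstream of the first start listed by RefSeq (GRCm38.p6), written 5′ to 3′ on the strand of the gene. The 3 runs lie at chr1:92180342-92180591 for Hdac4, chr16:10796824-10797073 for Prm1 and chr1:98095647-98095896 for Pam, all on the minus strand. Capitals mark TATAA on the given strand and CCAAT and GGGCGG on either strand.
Hdac4: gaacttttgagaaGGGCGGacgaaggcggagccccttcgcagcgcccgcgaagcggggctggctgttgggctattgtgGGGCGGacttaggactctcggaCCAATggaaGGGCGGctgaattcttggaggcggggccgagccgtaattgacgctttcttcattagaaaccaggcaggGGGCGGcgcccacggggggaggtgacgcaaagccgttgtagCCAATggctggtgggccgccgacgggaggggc
Prm1: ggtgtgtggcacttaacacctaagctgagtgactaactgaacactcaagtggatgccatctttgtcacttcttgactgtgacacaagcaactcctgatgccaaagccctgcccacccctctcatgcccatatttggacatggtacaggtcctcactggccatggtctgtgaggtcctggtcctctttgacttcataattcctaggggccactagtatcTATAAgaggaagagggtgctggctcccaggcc
Pam: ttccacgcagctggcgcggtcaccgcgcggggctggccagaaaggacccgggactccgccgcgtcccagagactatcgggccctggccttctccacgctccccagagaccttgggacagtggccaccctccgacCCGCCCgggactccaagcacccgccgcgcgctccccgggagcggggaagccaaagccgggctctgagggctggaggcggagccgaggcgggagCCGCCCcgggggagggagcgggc
The Hdac4 run held 2 matches to CCAAT and 4 to GGGCGG, the Pam run held 2 to GGGCGG, and the Prm1 run held 1 TATAA, 32 bases before the start. Their GC content was 65.2%, 75.6% and 51.6%, against a median of 52% over 27025 genes. The sequence TATAA was found in 16.7% of the runs of all genes, CCAAT in 34.5% and GGGCGG in 32.9%. The consensus of the MEF2 factors to which class IIa enzymes bind was in none of the 3 runs and in 3.01% of all (its matches can hold a TATAA). Among the genes that differed at any size, 110 of 133 had an entry and 5 of them (4.55%) held it, against 1.9% of all genes on the array and 1.46% of those at a level above the median. For CCAAT the shares were 40%, 35.7% and 35.9%. They were 69.1%, 49.9% and 60.4% for GGGCGG, and 10%, 11.6% and 7.59% for TATAA. Of the 110 genes, 89 had a probe set that was higher in carriers and 22 had a lower one, so higher was the common direction. The 5 with the MEF2 consensus were among the higher, by 0.31 for Prss23, 0.18 for Elmo1, 0.11 for Mcoln1, 0.1 for Bfar and 0.08 for Plekha1. These 5 did not pass without the raised arrays (adjusted p between 0.0896 for Mcoln1 and 0.247 for Plekha1). Their matches are shown in capitals with the bases on either side.
Prss23: aatgccctcaCTAATTTTAGtatactggaa
Elmo1: tcatcccacaCTATTTATAAcagagatgaa
Mcoln1: gaccgcgcgaCTATTTTTAGtccacaagcg
Bfar: aattccgactCTATAAATAAaactttaagg
Plekha1: ggaaccaaacCTATTTTTAAagatccctgt
These runs lie at chr7:89527225-89527254 (minus strand) for Prss23, chr13:20090261-20090290 for Elmo1, chr8:3500351-3500380 for Mcoln1, chr16:13671643-13671672 for Bfar and chr7:130865560-130865589 for Plekha1 (plus strand). A match of letters is a description and says nothing on whether a factor binds there.

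Hdac4 RNA was lower in every carrier on its bright probe sets. On the brightest the carriers lay between 7.7 and 8.02 with a median of 7.85, and the non-carriers between 8.28 and 8.64 with a median of 8.47. The groups did not overlap, and the difference was −0.6 (standard error 0.03, adjusted p = 3.4e-18 from limma), so carriers had 66% of the level of non-carriers. On the next the carriers lay between 7.52 and 7.95 with a median of 7.7, and the non-carriers between 8.03 and 8.44 with a median of 8.25, again without overlap. The difference there was −0.56 (standard error 0.04, adjusted p = 3.2e-14). The dimmest Hdac4 probe set was between 5.92 and 6.42 in carriers and between 6.09 and 6.46 in non-carriers. These ranges overlapped and the difference was smaller, −0.24 (standard error 0.04, adjusted p = 0.00066). No source used here says whether these probes lie in the deleted part of the gene. The difference on the brightest stayed between −0.61 and −0.59 whichever single array was left out.

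No probe set of the other histone deacetylases passed the adjusted p. Hdac5, Hdac7 and Hdac9 are the other class IIa enzymes. Hdac5 had a difference of 0.08 (95% interval 0.02 to 0.13, adjusted p = 0.174), Hdac7 of 0 (−0.07 to 0.06) and Hdac9 of −0.02 (−0.11 to 0.06). Hdac3, the deacetylase of the corepressor complex, had a difference of 0 with an interval of −0.04 to 0.04. Hdac1 and Hdac2 were also at 0, with intervals of −0.09 to 0.1 and −0.04 to 0.05. Hdac6 was at 0.01 (−0.03 to 0.06), Hdac8 at 0.06 (−0.03 to 0.16), Hdac10 at 0.04 (−0.02 to 0.11) and Hdac11 at 0.07 (0 to 0.14). On their brightest probe sets, no interval of these genes reached beyond 0.16 in either direction.

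**Figure D1:**
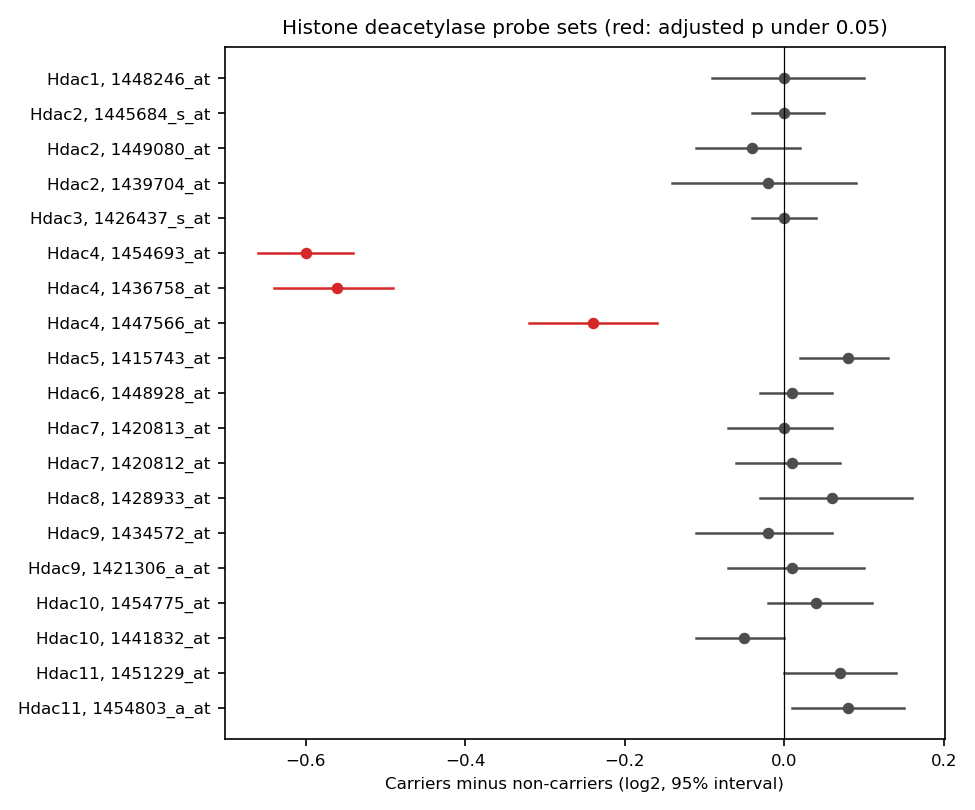
Differences between carriers and non-carriers for each of 19 probe sets of the 11 histone deacetylases. The x axis is the log2 difference from the model with the transgene as a term, points are estimates and lines are 95% intervals. The 3 Hdac4 probe sets, in red, lie between −0.6 and −0.24, and the others lie between −0.05 and 0.08.

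Prm1 had the largest rise. It encodes protamine 1, a small basic protein that packs DNA in sperm. On the probe set with the larger rise the carriers lay between 3.97 and 5.01 with a median of 4.61, and the non-carriers between 2.68 and 3.05 with a median of 2.83. On another the carriers lay between 3.91 and 4.78 with a median of 4.49, and the non-carriers between 2.68 and 3.18 with a median of 2.92. Neither probe set showed overlap, and the differences were 1.7 (standard error 0.07, adjusted p = 1.47e-21) on the first and 1.52 (standard error 0.06, adjusted p = 8.47e-22) on the other, the lowest p values of all probe sets. The non-carrier values were near the lowest mean level of any probe set, 2.61, and the table holds no detection calls, so the ratios of 3.24 and 2.86 compare with a level that may be background. The brightest Prm1 probe set was higher by 0.15 (standard error 0.03, adjusted p = 0.0138), with carriers between 6.83 and 7.23 and non-carriers between 6.69 and 7.02. All of these Prm1 probe sets end in _x_at, which marks probes that can also match other sequences, and Prm1 lies on chromosome 16, away from Hdac4. Without probe sequences it could not be checked whether these probe sets match sequence of the targeted allele, so their rise need not be of Prm1 RNA. On the first of them the rise was 1.55 from WT to Hdac4HET and 1.83 from R6/2 to Dble::R6/2 mice.

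Pam rose as clearly, at a much higher level. It encodes the enzyme that amidates the end of neuropeptides, and it lies on chromosome 1 within 10 Mb of Hdac4. The carriers lay between 10.08 and 10.55 with a median of 10.25, and the non-carriers between 9.46 and 9.83 with a median of 9.69. No carrier overlapped with a non-carrier, and the difference was 0.61 (standard error 0.04, adjusted p = 2.22e-15), or 1.52-fold. It was 0.67 without the raised arrays and 0.66 without both sets of arrays. Over all probe sets, carriers and non-carriers did not overlap for 7 (0.0155%). These were the bright pair of Hdac4, the same pair of Prm1, Pam, Stk25, and a probe set with no symbol. The last had levels of 5.96 to 6.25 in carriers and 6.27 to 6.67 in non-carriers and a difference of −0.37 (standard error 0.04, adjusted p = 2.52e-09), just short of 1.3-fold and so not among the 11.

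**Figure D2:**
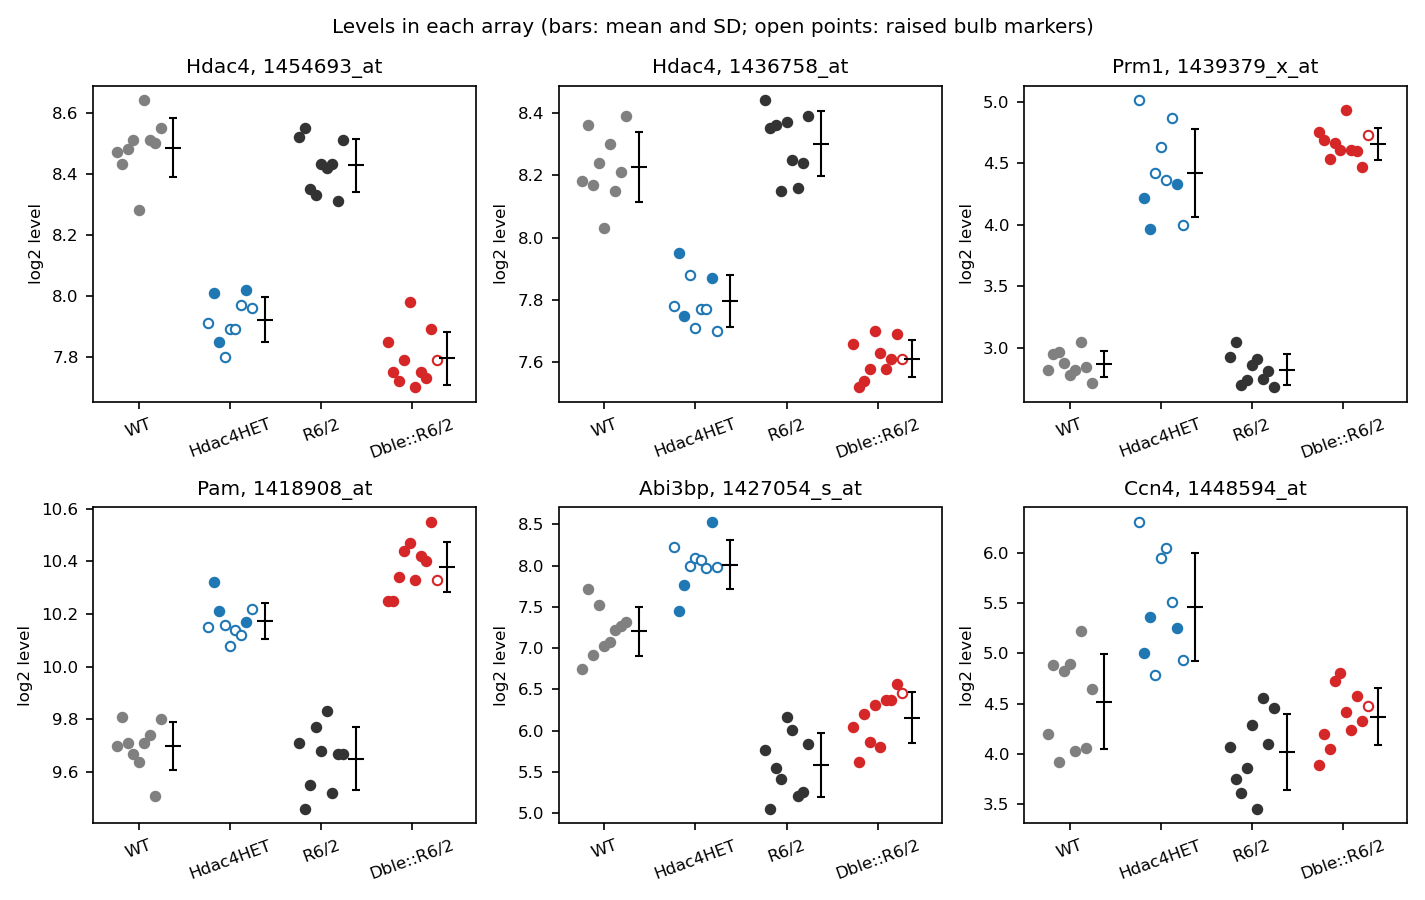
Log2 levels on each array by genotype, for the brightest and next brightest probe set of Hdac4 and a probe set each of Prm1, Pam, Abi3bp and Ccn4. Points are arrays, open points are the 7 arrays with raised bulb markers, and bars are means with SD. Carriers (Hdac4HET and Dble::R6/2) and non-carriers (WT and R6/2) do not overlap for Hdac4, Prm1 and Pam, while for Abi3bp and Ccn4 their ranges overlap.

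A larger share of probe sets passed among the genes around Hdac4 than over the whole array. Of 257 probe sets for genes within 10 Mb, 16 differed at any size (6.23%, against 0.417% of all), 8 higher and 8 lower, and they stood for 12 genes. Without Hdac4 itself it was 13 of 254 (5.12%). The share was 9.18% within 2 Mb, 7.32% within 5 Mb and 4.15% within 20 Mb. It was 0.178% on the same chromosome beyond 20 Mb and 0.39% on the other chromosomes. Without the raised arrays 11 of the 257 differed (4.28%, against 0.0999% of all), and without both sets 9 (3.5%, against 0.0422%). The null allele, the flanking DNA of the donor strain and the neighbouring genes are inherited together, and their parts in these differences cannot be told apart. The differences are of probe signal, and whether donor strain sequence under the probes had a part in them was not tested.

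Among the neighbours, Stk25, a Ste20-type kinase that acts on neuronal polarity, differed most evenly. Its level was between 11.02 and 11.2 with a median of 11.11 in carriers, and between 11.28 and 11.49 with a median of 11.39 in non-carriers. The groups did not overlap although the difference was only −0.28 (standard error 0.02, adjusted p = 2.25e-14). Kif1a, a kinesin that carries synaptic vesicle precursors along axons, was between 8.95 and 9.44 in carriers and between 9.25 and 9.68 in non-carriers. The ranges overlapped, and the difference was −0.25 (standard error 0.03, adjusted p = 3.85e-07), while another Kif1a probe set was at 0 (adjusted p = 0.978). Usp40, a deubiquitinating enzyme, was lower on a single probe set, at −0.28 (standard error 0.05, adjusted p = 0.0028). Its others were at 0.06, 0.03 and −0.09 (adjusted p = 0.364, 0.788 and 0.162). Asb1, which has ankyrin repeats and a SOCS box, was lower on a single probe set, at −0.14 (standard error 0.03, adjusted p = 0.00522). That probe set did not pass without the raised arrays (adjusted p = 0.0648). The others of Asb1 were at 0.1, −0.04 and −0.02 over all arrays (adjusted p = 0.223, 0.595 and 0.907).

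Other neighbours were higher in carriers. Ramp1, a partner of the receptor for calcitonin gene-related peptide, was higher on both of its probe sets that passed, by 0.28 (standard error 0.04, adjusted p = 0.000138) on the dimmer and by 0.18 (standard error 0.03, adjusted p = 0.0027) on the brighter, while another was at −0.16 (adjusted p = 0.113). On the dimmer of the pair the carriers lay between 6.24 and 6.78 with a median of 6.6, and the non-carriers between 6.12 and 6.48 with a median of 6.31. Bok, a member of the BCL2 family, was higher by 0.28 (standard error 0.05, adjusted p = 0.00556), with carriers between 9.08 and 9.89 and non-carriers between 8.77 and 9.48. Snorc, a proteoglycan of cartilage, was higher by 0.2, and Eif4e2, a cap-binding protein, and Irs1, an adaptor of the insulin receptor, were higher by 0.11 each (adjusted p = 0.0336, 0.0375 and 0.0483). These calls were lost without any 1 of 8 arrays for Snorc, 14 for Eif4e2 and 22 for Irs1, and without the raised arrays (adjusted p = 0.123, 0.163 and 0.308). Other probe sets of Eif4e2 lay between −0.12 and 0.05 and did not pass (adjusted p between 0.16 and 0.792). Gin1, named for its resemblance to a retrotransposon integrase, had 2 probe sets that passed in opposite directions. The difference was −0.28 (standard error 0.04, adjusted p = 0.00033) on the dimmer and 0.2 (standard error 0.04, adjusted p = 0.0292) on the brighter. Of the 133 genes it was the only one with such a pair, and without the raised arrays the brighter did not pass, at 0.13 (adjusted p = 0.242).

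**Figure D3:**
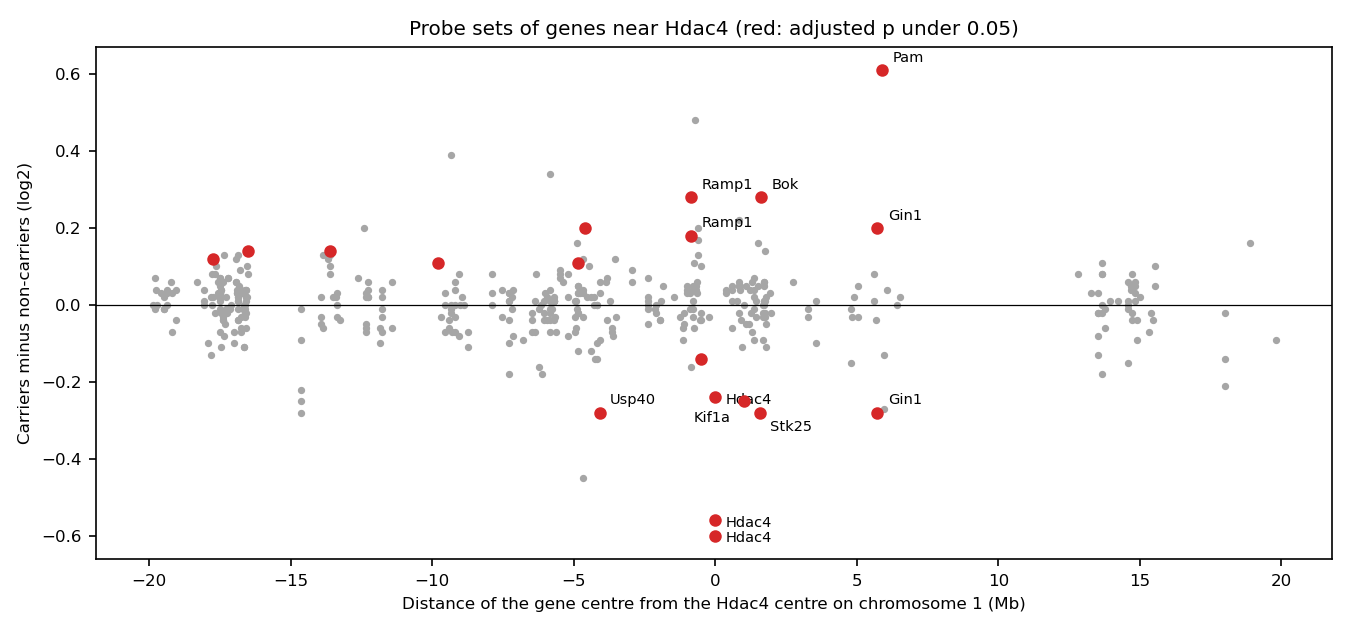
Log2 difference between carriers and non-carriers for probe sets of genes within 20 Mb of Hdac4, by the distance between gene centres in Mb. Red points differ at an adjusted p under 0.05 and the rest are grey. Pam is the highest of the red points at 0.61, the bright probe sets of Hdac4 are lowest at −0.6 and −0.56, and 9 of the 19 red points lie within 2 Mb of it.

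The remaining changed genes lie on other chromosomes and had wider ranges. Abi3bp, a protein of the extracellular matrix, was between 7.45 and 8.53 with a median of 8 in Hdac4HET mice on its brighter probe set, and between 6.75 and 7.72 with a median of 7.22 in WT mice. In Dble::R6/2 mice it was between 5.62 and 6.56 with a median of 6.25, and in R6/2 mice between 5.05 and 6.17 with a median of 5.55. Carriers were thus higher on both backgrounds with overlapping ranges, and the shared difference was 0.69 (standard error 0.1, adjusted p = 0.000171). The other probe set of Abi3bp had a difference of 0.71 (standard error 0.12, adjusted p = 0.000977). The difference with the transgene in the same model was larger and of the opposite sign, −1.74 and −1.78, and the null allele and transgene terms share their arrays. Without the raised arrays the Abi3bp differences were 0.6 (adjusted p = 0.0421) and 0.55 (adjusted p = 0.092), and without both sets of arrays neither passed (adjusted p = 0.12 and 0.198).

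Ccn4, a matricellular protein first known as a target of Wnt signals, rose on both of its probe sets. On the dimmer it was between 4.78 and 6.31 with a median of 5.36 in Hdac4HET and between 3.92 and 5.22 with a median of 4.64 in WT mice. It was between 3.89 and 4.8 with a median of 4.37 in Dble::R6/2 and between 3.45 and 4.56 with a median of 4.07 in R6/2 mice. The genotypes overlapped within each background, and the shared differences were 0.64 (standard error 0.14, adjusted p = 0.0229) on the dimmer and 0.41 (standard error 0.09 and adjusted p = 0.0316) on the brighter. The brighter dropped out of the changed probe sets, by the adjusted p or the fold limit, without 8 of the 37 arrays, taken 1 at a time. Neither was past the adjusted p without the raised arrays (adjusted p = 0.14 and 0.178). Tmem40, a membrane protein, had a difference of 0.38 (standard error 0.07, adjusted p = 0.00633) on 1 probe set, at the limit of 1.3-fold, and of 0.3 (adjusted p = 0.0838) without the raised arrays. Its other probe sets had differences of 0.18 (adjusted p = 0.0826) and 0.05 (adjusted p = 0.688). Leaving out any 1 of 17 arrays took that probe set of Tmem40 out of the count of changed probe sets, at a difference of 0.36 to 0.41 throughout. The changed probe set without a symbol was between 4.3 and 5.97 in carriers and between 4.93 and 6.19 in non-carriers. It did not pass without any 1 of 6 arrays (adjusted p up to 0.0565). Its difference was −0.43 (standard error 0.1, adjusted p = 0.0295), made up of −0.15 between Hdac4HET and WT and −0.7 between Dble::R6/2 and R6/2 mice. With the bulb marker mean as a term in the model, both probe sets of Abi3bp passed, at 0.6 (adjusted p = 0.00681) and 0.55 (adjusted p = 0.0331). Those of Ccn4 did not, at 0.39 (adjusted p = 0.172) and 0.26 (adjusted p = 0.202), nor did that of Tmem40, at 0.32 (adjusted p = 0.0641).

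**Figure D4:**
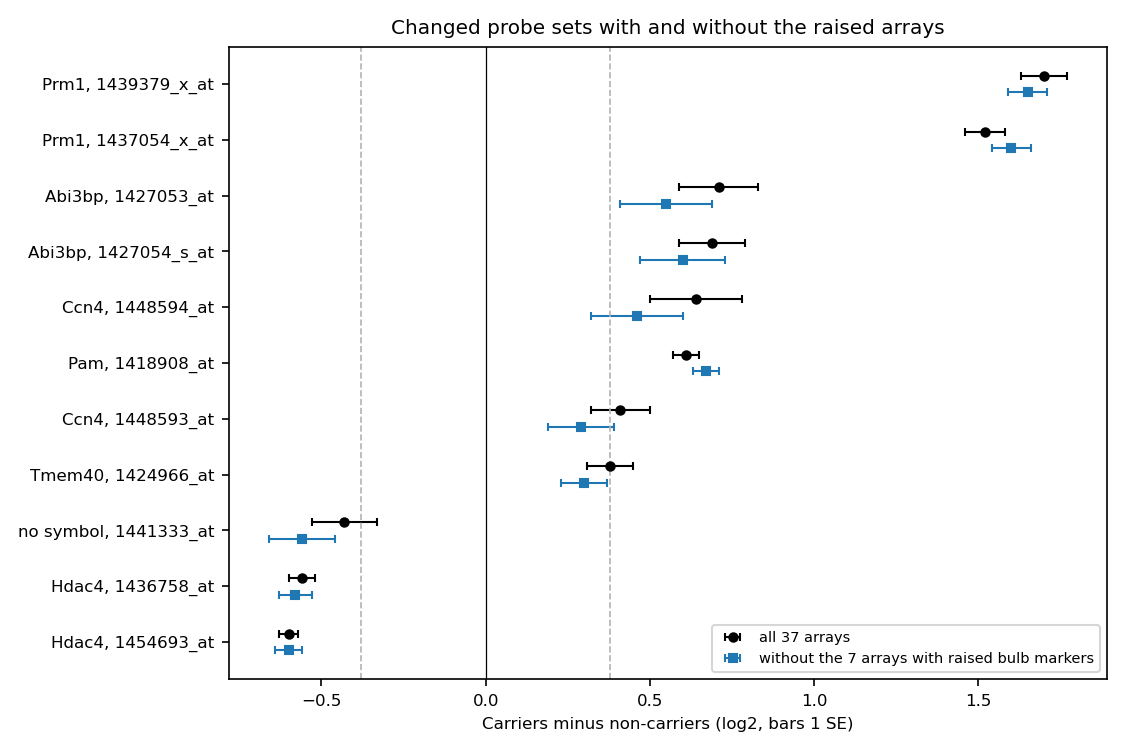
Log2 difference between carriers and non-carriers for the 11 changed probe sets over all 37 arrays (black) and without the 7 arrays with raised bulb markers (blue). Bars are 1 standard error each way and dashed lines mark 1.3-fold. Without those arrays the estimates are 1.65 and 1.6 for Prm1, 0.67 for Pam and −0.6 and −0.58 for Hdac4, while those for Ccn4 are 0.46 and 0.29.

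Most of the 188 probe sets were below the fold limit, and a few of their genes are given with their values. Ldhb, the heart-type subunit of lactate dehydrogenase, was higher on 4 probe sets by 0.08 to 0.11. On that of lowest p it was between 12.39 and 12.64 in carriers and between 12.31 and 12.54 in non-carriers, with a difference of 0.11 (standard error 0.02, adjusted p = 0.000195). Chchd10, a mitochondrial protein of the cristae, was higher by 0.13 (adjusted p = 0.0028), Ppargc1a, the coactivator that drives mitochondrial genes, by 0.14 (adjusted p = 0.0028) and Mgst3, a microsomal glutathione transferase, by 0.13 (adjusted p = 0.000746). Frzb and Sfrp2, secreted antagonists of Wnt proteins, were higher by 0.31 and 0.28 (adjusted p = 0.00155 and 0.0292), and a further probe set of Frzb was higher by 0.25 (adjusted p = 0.0408). These genes were picked after their values were seen, and no group of them was tested. Of these, Ldhb on that probe set, Chchd10, Mgst3 and Frzb on the first passed without the raised arrays (adjusted p = 0.015, 0.0421, 0.00977 and 0.0476), and Ppargc1a and Sfrp2 did not (adjusted p = 0.0838 and 0.169).

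Lower at small sizes were Chl1, a cell adhesion molecule of growing axons, at −0.17 (standard error 0.03, adjusted p = 0.000679), Calb1, the calcium buffer calbindin, at −0.26 (standard error 0.05, adjusted p = 0.0072), Nav3, a protein of microtubule tips, at −0.26 (standard error 0.05, adjusted p = 0.00277) and Slc7a11, the cystine and glutamate exchanger, at −0.31 (standard error 0.07, adjusted p = 0.0291). Pcdh19, a protocadherin, was lower on 2 of its probe sets, at −0.2 and −0.28. Of these lower genes only Nav3 passed without the raised arrays (adjusted p = 0.0242), and Chl1, Calb1, Slc7a11 and Pcdh19 did not (adjusted p = 0.0838, 0.0569 and 0.0562, and 0.145 and 0.127 for Pcdh19). Slc7a11 was then at −0.36 and the Pcdh19 probe sets at −0.19 and −0.28. The median difference of the 58 lower probe sets was −0.18 without the raised arrays, against −0.21 over all arrays. The lower set had fewer named genes than the higher set, since 48.3% of its probe sets and 8.46% of the higher ones were without a single symbol, against 22.4% of all. The median level was 7.72 among the lower and 9.12 among the higher probe sets. Acp1 at 0.38 and Nav2 at 0.36 fell just short of a 1.3-fold difference, and Tmem40 at 0.38 just passed it.

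No listed gene of the pathway in which HDAC4 works passed the adjusted p on its brightest probe set, apart from Hdac4. Among 14 measured transcription factors bound by class IIa enzymes 1 had an unadjusted p under 0.05 in limma, and their differences had a median of 0 and ran from −0.15 to 0.03, with Mef2c of lowest p at −0.15 (95% interval −0.28 to −0.03, adjusted p = 0.237). Among 17 neuronal MEF2 targets the median was 0 (from −0.14 to 0.11), and the 1 with an unadjusted p under 0.05 was Pcdh17, a protocadherin, at −0.14 (adjusted p = 0.221). Among 11 corepressor components the unadjusted p was under 0.05 for 3, led by Gps2 at 0.11 (adjusted p = 0.15). It was for 5 of 21 kinases of class IIa enzymes, led by Prkd2, a protein kinase D, at 0.12 (adjusted p = 0.16), and for 2 of 8 genes of 14-3-3 proteins and nuclear export, led by Ywhag at −0.08 (adjusted p = 0.0954). Over all genes the median difference was 0.01, and the unadjusted p was under 0.05 for 2939 of 18193 genes by their brightest probe set and for 14.4% of all probe sets.

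Neuronal lists gave few members. None of 34 immediate early and activity-induced genes passed (median 0.01), and 0 had an unadjusted p under 0.05 in limma, with Dusp5 of lowest p at 0.13 (adjusted p = 0.381). Of 20 synaptic vesicle genes only Cplx1, which clamps vesicle fusion, passed, at 0.1 (adjusted p = 0.0482). Of 19 layer markers, Pcp4 at 0.14 and Cux1 at 0.1 passed (adjusted p = 0.0183 and 0.0472), and of 12 genes for huntingtin and its partners Hip1 at 0.14 (adjusted p = 0.0375). These did not pass without the raised arrays (adjusted p between 0.0919 and 0.283), while Hip1r, at 0.08 over all arrays (adjusted p = 0.106), did, at 0.11 (adjusted p = 0.0421). Homer2 was at 0.12 among 16 glutamate receptors and scaffolds (adjusted p = 0.222) and Ntrk3 at 0.03 among 6 neurotrophin genes (adjusted p = 0.652). Actn2 was at 0.2 among both 20 striatal genes and 18 muscle genes (adjusted p = 0.111), Slc32a1 at 0.16 among 19 neuropeptide and interneuron genes (adjusted p = 0.153) and Hspa1a at 0.18 among 17 chaperones (adjusted p = 0.105). The unadjusted p was under 0.05 in limma for 11 of 20 striatal genes, whose median was 0.16 (0.06 without the raised arrays). It was for 7 of 20 synaptic vesicle genes, 7 of 19 layer markers, 7 of 12 huntingtin genes and 6 of 19 interneuron genes. It was for 4 of 17 chaperones, 3 of 16 glutamate genes, 3 of 18 muscle genes, 0 of 6 neurotrophin genes and 2939 of 18193 genes in all. The striatal median was 0.28 between Hdac4HET and WT and 0.02 between Dble::R6/2 and R6/2 mice. Of 13 measured genes with Taqman assays in the study, none passed over both backgrounds. Between Dble::R6/2 and R6/2 mice 1 of them was changed to higher and 2 to lower, where 0.269% of all probe sets changed. The study took some of these genes from that comparison. By Taqman it detected differences, of small size, only for Secis and Casc4, and both went the opposite way to its arrays. Malat1 had the lowest p at −0.26 (adjusted p = 0.0659), Cyp39a1 was at 0.43 (adjusted p = 0.0856), Htt at 0.06 and Bdnf at −0.03. The study, however, states that its arrays lacked probe sets for Bdnf. Over all 26 lists, 5 of 360 measured genes passed (1.39%), Hdac4 among them, against 0.5% of all genes counted by their brightest probe set.

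Markers of other cell types were followed for the tissue held in each sample. Among 19 bulb markers none passed over both backgrounds, but all were higher, with a median of 0.41 and a range of 0.17 to 1.18, 18 had an unadjusted p under 0.05, and Dlx5 had the lowest p (adjusted p = 0.0545). The mean of the list ran from 6.6 to 8.66 in Hdac4HET, 6.44 to 7.32 in Dble::R6/2, 6.5 to 6.83 in WT and 6.45 to 6.74 in R6/2 mice. Over the other arrays the median was −0.01. No marker of astrocytes (18 measured, median 0), oligodendrocytes (15, median 0.03), their precursors (8, median −0.02), microglia (15, median −0.03) or endothelium and pericytes (16, median 0.01) passed, with lowest p for Atp1b2 at 0.08, Sox10 at 0.11, Matn4 at 0.17, Trem2 at 0.11 and Itm2a at 0.06. The 13 markers of choroid plexus, meninges and blood had a median of −0.21 and ran from −0.74 to 0.31, and Kcnj13 was lowest in p at −0.45 (adjusted p = 0.218). In whole tissue, fewer cells of a type and less RNA per cell cannot be told apart. Females by label were 9 of 19 carriers and 8 of 18 non-carriers, and the 4 measured sex-linked genes ran from −0.7 to 1.14 with none past the adjusted p (0 with an unadjusted p under 0.05).

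The difference was then taken within each background, from 1 model of the 4 genotypes. Hdac4HET and WT mice differed on 131 probe sets (0.291%), 124 of them higher (0.275%), and Dble::R6/2 and R6/2 mice on 121 (0.269%), 111 of them lower (0.246%). The comparisons share no array. Single arrays moved both counts. The first was between 73 and 78 without Hdac4HET replicate 1, 5 or 7. The second was between 31 and 76 without any 1 of R6/2 replicates 2, 3, 5 and 9 and Dble::R6/2 replicates 4, 5, 8, 9 and 10, and between 186 and 218 without R6/2 replicate 4 or Dble::R6/2 replicate 1, 2 or 6. Only 6 probe sets changed in both in the same direction, 4.58% of the first and 4.96% of the second, and these were those of Hdac4, Prm1, Pam and Abi3bp. A probe set of Ampd2, an AMP deaminase, changed in opposite directions, by 0.39 and −0.45. The sign was the same for 60.3% of the first and 58.7% of the second, against 46.1% of all probe sets. Across all probe sets the differences in the 2 backgrounds had a correlation of −0.05, and of 0.04 without the raised arrays, where the counts were 4 and 27 (0.00888% and 0.06%). That fit was left with 3 Hdac4HET and 9 Dble::R6/2 arrays. At any size 1.43% of probe sets passed in the first and 1.99% in the second, and of the 188 probe sets, 18 passed the adjusted p in both backgrounds, 59 in Hdac4HET only, 57 in Dble::R6/2 only and 54 in neither.

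**Figure D5:**
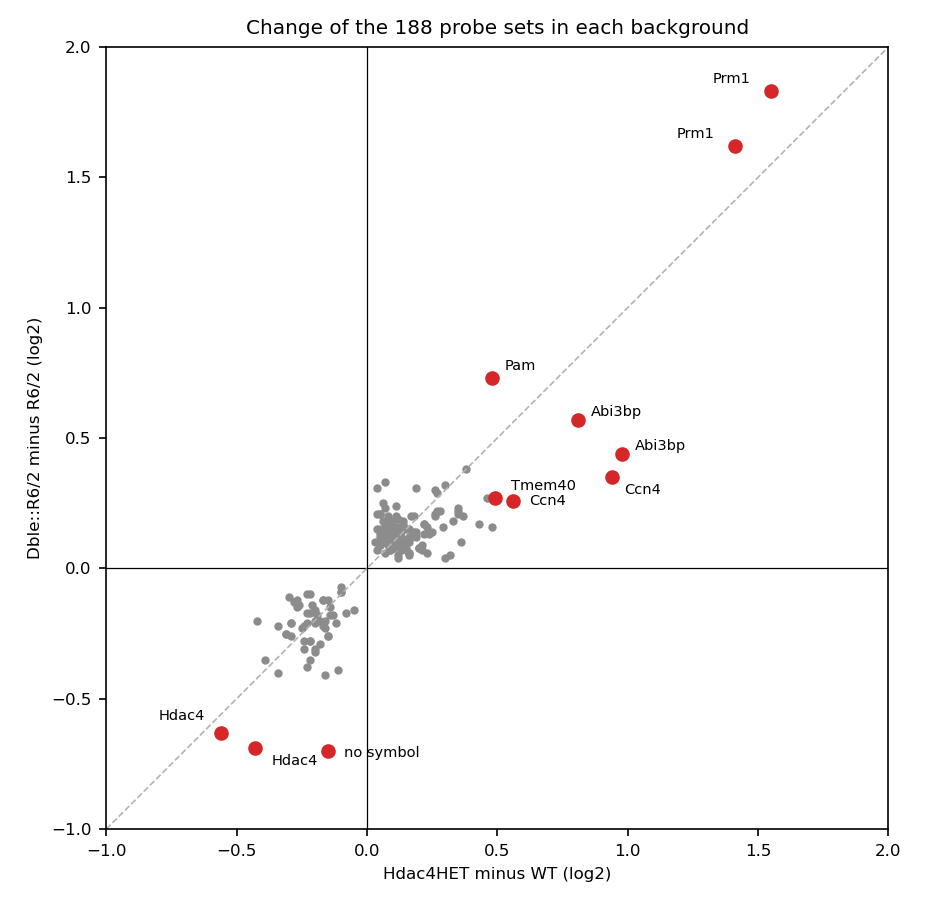
Log2 differences of the 188 probe sets in each background, Hdac4HET minus WT on the x axis and Dble::R6/2 minus R6/2 on the y axis. The 11 changed probe sets are red and named, and the dashed line marks equal differences. All points share a sign on both axes, which the choice of the 188 brings with it, and the points of Abi3bp, Ccn4 and Tmem40 lie below the line.

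Whether the null allele acted alike in both backgrounds was tested by the interaction. It was past both thresholds for 113 probe sets (0.251%), none of them among the 188. The count was between 35 and 75 without any 1 of WT replicates 1, 3 and 5, Hdac4HET replicates 1, 5, 6 and 7, R6/2 replicates 1 and 3 and Dble::R6/2 replicates 3, 4 and 9, and between 188 and 262 without WT replicate 7, Hdac4HET replicate 2 or 3, R6/2 replicate 4 or Dble::R6/2 replicate 6. The 5 genes of lowest p were Lipa, the lysosomal acid lipase, at −0.75 (standard error 0.09, adjusted p = 5.93e-05), Ampd2 at −0.85 (standard error 0.11), Prpf19, a splicing factor, at 0.32 (standard error 0.05), Wdr53 at −0.61 (standard error 0.1) and Mtus1 at −0.46 (standard error 0.08). Only Lipa passed without the raised arrays, at −0.78 (adjusted p = 0.0102, 0.00222% of probe sets). At the adjusted p alone, 0.968% of all probe sets had an interaction, among them 2 of the 188. The 188 were chosen by a model without an interaction, which favours probe sets that differ alike in both backgrounds. Neither overlap with the 188 can therefore show whether the null allele acted alike. The fall of Hdac4 on the second brightest probe set was −0.43 in Hdac4HET and −0.69 in Dble::R6/2 mice, a difference of −0.26 (standard error 0.06, adjusted p = 0.0359), whereas on the brightest it was −0.56 and −0.63 (interaction −0.07, adjusted p = 0.527). The rise of Pam was 0.48 and 0.73, a difference of 0.25 (standard error 0.06, adjusted p = 0.04). For these probe sets of Hdac4 and Pam the interactions without the raised arrays were −0.32 and 0.2 and did not pass (adjusted p = 0.224 and 0.438). Only 3 Hdac4HET arrays were left there, and why these calls were lost was not tested.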

How the data were processed

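Cortex RNA of 37 mice was measured on Affymetrix Mouse Genome arrays, 1 per mouse. The authors deposited 1 table of log2 values. Arrays were checked with RACE per the labels, and the way they were summarized is, like the normalization, not given in the sources used here. Values were used as deposited. The number of arrays limits the precision. Genotype, replicate number and sex came from the labels. Nothing was left unassigned.

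Of 45037 probe sets, 34945 had 1 gene symbol, 932 several and 9160 none here, and genes were named only from the first. Symbols, neighbours and upstream sequences came from RefSeq (GRCm38.p6).

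R 4.3.3 and limma 3.58.1 were used. The main model held terms for null allele and transgene and eBayes with a trend. Contrasts within backgrounds and the interaction came from a model of the 4 genotypes. The adjusted p is over all probe sets, with a threshold of 0.05, and the fold limit was 1.3. The model was tested on simulated data. Lists counted each gene by its brightest probe set. The members and lists were chosen with earlier results of these data known.

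The rule for named genes took all Hdac genes, the 12 largest changes each way (8 without the raised arrays), changed genes within 10 Mb of Hdac4, up to 4 changed members of each list or the member of lowest p, the genes of Taqman assays and the 5 of lowest p in the interaction. Neighbours that passed the adjusted p alone and the genes of small difference were named after their values were seen. Alternatives were quantile normalization, a filter at the median level, the mean of both backgrounds, the methods' t-test, sex, the replicate number or the bulb marker mean as a term, array weights, no _x_at or _s_at probe sets, other fold limits, no trend, windows of 5 and 20 Mb, the raised or sex-discordant arrays left out and each array left out.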

Additional observations from a re-analysis of the deposited data

Results flagged for a closer look

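In 136 groups of arrays (34 named probe sets in 4 genotypes), 4 held an array whose distance from the rest passed Dixon's limit at 95%, or 2.94%, and chance flags about 1 group in 20. For Ramp1 on its brighter probe set, Hdac4HET replicate 9 was at 11.07, above the next at 11. For Gin1 on the dimmer probe set that passed, WT replicate 6 was at 6.28, below the next at 6.49. For Asb1, Hdac4HET replicate 1 was at 8.28, above the next at 8.16, and for Kif1a, Hdac4HET replicate 2 was at 9.25, above the next at 9.1.

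The effect of the null allele differed between the backgrounds by test for Pam, by 0.25 (higher in Dble::R6/2 against R6/2 than in Hdac4HET against WT), and for Hdac4 on its second brightest probe set, by −0.26. The adjusted p values were 0.04 and 0.0359 over all arrays and 0.438 and 0.224 without the raised arrays, where 3 Hdac4HET arrays were left.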

How the results depend on the processing

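Over the alternatives, 1548 of 1686 values of the 34 named probe sets kept their side of the threshold, and 138 kept the direction only. Among probe sets that passed in the main model, 0 values changed direction. For the other histone deacetylases, which did not pass, a change of sign was counted as kept. An example is Hdac8, at 0.06 in the main model and −0.01 at its lowest. The counts moved more, and where no other cause follows from the fewer arrays or probe sets, the cause was not tested. With only probe sets above the median level, 416 probe sets differed in carriers at any size (188 in the main model), 2 list members changed (1 in the main model) and 77 probe sets changed between Hdac4HET and WT (131). The mean of both backgrounds gave 23 changed (11), 324 at any size and 6 list members. The methods' t-test, which the study ran between genotypes, was run here on carriers against non-carriers without a term for the transgene. In that form it gave 5 changed, 19 at any size and 8 near Hdac4 (16). Within each background it gave 10 in Hdac4HET and 15 in Dble::R6/2 (121). Without the fold limit the counts were 188 in carriers, 16 near Hdac4 (3), 5 list members, 643 in Hdac4HET, 895 in Dble::R6/2 and 436 for the interaction (113). Reading 30% lower as below 0.7 gave 37 in Dble::R6/2. Without the raised arrays they were 7 changed, 45 at any size, 4 in Hdac4HET, 27 in Dble::R6/2 and 1 for the interaction. Without the arrays against the labelled sex they were 45 at any size, 6 in Hdac4HET, 24 in Dble::R6/2 and 3 for the interaction. Without both sets they were 7 changed, 19 at any size, 9 near Hdac4, 4 in Hdac4HET, 9 in Dble::R6/2 and 0 for the interaction. With the bulb marker mean as a term they were 104 at any size and 47 in Hdac4HET. Leaving out 1 array at a time gave 8 to 34 changed, 91 to 650 at any size, 1 to 3 list members, 73 to 192 in Hdac4HET, 31 to 218 in Dble::R6/2 and 35 to 262 for the interaction, the lowest of each last 3 without Hdac4HET replicate 1, R6/2 replicate 3 and Hdac4HET replicate 5 and the highest without Hdac4HET replicate 2, Dble::R6/2 replicate 2 and WT replicate 7.

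The replicate numbers did not pair the mice. Deviations of arrays with the same number had a median correlation of 0.01 over 54 pairs (from −0.27 to 0.22), and 3 arrays correlated best with their own number. With the replicate number as a block, 9 probe sets changed, 80 differed at any size and 20 changed in Dble::R6/2.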
